A study of Mus musculus with 7 samples.

Results

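Serpins and whey acidic protein (WAP) domain proteins are protease inhibitors, and their genes were followed here in purified Paneth cells (PCs) of mice given tumour necrosis factor (TNF). The family was taken as every protein-coding gene of the count table whose mouse symbol begins with Serpin or Wfdc, or is Slpi. That rule, which uses names and no measured values, gave 82 genes among the 55414 gene identifiers of the table. They comprised 24 serpins of clade A, 28 of clade B, 11 of other serpin clades and 19 WAP domain genes. Another 6 entries that carry such symbols but are not annotated as protein-coding were left out. All mice were of the C57BL/6J strain and received an injection of either PBS, the vehicle control (n = 3), or TNF (n = 4), and PCs were sorted from the small intestine 15 h later for bulk RNA-seq. Each mouse gave 1 library. The sources used here do not give the dose of TNF, the sex and age of the mice, the sorting antibodies or the days of sorting, and batches could therefore not be looked for.

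Serpins inhibit by suicide: the target protease cuts an exposed reactive loop, and the serpin then snaps into another shape that traps the enzyme in a covalent complex. Clade A serpins are mostly secreted and include the antitrypsin and antichymotrypsin genes, clade B serpins lack a classical signal peptide and act mainly inside the cell, and the remaining clades include the inhibitors of coagulation and of plasmin formation. WAP domain proteins are small secreted proteins held together by disulfide bonds, several of which block elastase-like enzymes or have antimicrobial activity. PCs lie at the base of the crypts of the small intestine and release granules with antimicrobial peptides (AMPs).

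Total counts ran from 15511455 to 19193721 per library. Levels are given as CPM, the counts of a gene scaled to a common library size after TMM correction for composition, and a gene is called differentially expressed (DEG) at an adjusted p under 0.05 in the edgeR quasi-likelihood test, with Benjamini-Hochberg adjustment over all 14329 tested genes. The PC label held: all 10 PC markers were detected, and together they took 184213 to 304408 CPM in the PBS libraries and 175375 to 320195 CPM in the TNF libraries. Most of that sum came from Lyz1, Defa24, Defa30 and Itln1, which were not called, whereas Mmp7, Pla2g2a and Nupr1 rose and Habp2 fell. In bulk libraries, fewer cells of a type and less RNA per cell cannot be told apart. Of all tested genes, 8543 were DEGs, and the median log2 fold change over all tested genes was 0.0017.

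Most of the family was silent or nearly so in PCs, and the part that was expressed differed widely between PBS and TNF. Of the 82 genes, 40 had 0 counts in every library and 28 had some counts but too few for the test, the highest being Serpina3k with 40 counts over all 7 libraries. The 14 genes that could be tested made up 17.1% of the family, whereas 57.1% of all protein-coding genes of the table could be tested. Over all libraries together, 3 counts correspond to 0.0243 CPM, which is the level below which a gene could be missed at this depth. Of the 14 tested genes, 12 (85.7%) were DEGs, against 59.6% of all tested genes. Among these, 8 rose (57.1%, against 29.5% of all tested genes) and 4 fell (28.6%, against 30.1%). Leaving out PBS replicate 2 reduced the genes that fell to 2, with Serpine2 and Serpini1 no longer called. In 11 of the 14 the PBS and TNF libraries did not overlap, against 60.7% of all tested genes. In 8 of them every TNF library was above every PBS library (29.9% of all tested genes) and in 3 every TNF library was below (30.9%). A gene with few counts in 1 group can pass the filter only by being high in the other, so these shares describe the tested genes and not the whole family.

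Summed over the 82 genes, the level was 268, 258 and 210 CPM in the PBS libraries and 756, 868, 863 and 985 CPM in the TNF libraries. Every TNF library lay above every PBS library, with means of 245 ± 31.2 CPM (SD, n = 3) and 868 ± 93.7 CPM (SD, n = 4), a ratio of 3.54. The clade B genes Serpinb6a and Serpinb1a alone took 76.8% to 80.6% of the family's CPM after PBS and 83.2% to 86.8% after TNF. The groups of genes moved apart: the sum of clade B went from 203 ± 23.3 to 762 ± 72.5 CPM and that of the WAP genes from 1.64 ± 0.351 to 61.9 ± 20.3 CPM, while the sum of the other serpin clades went from 30.9 ± 6.92 to 12.5 ± 4.37 CPM. Clade A went from 9.64 ± 2.84 to 31.9 ± 7.06 CPM. These sums were not tested.

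**Figure D1:**
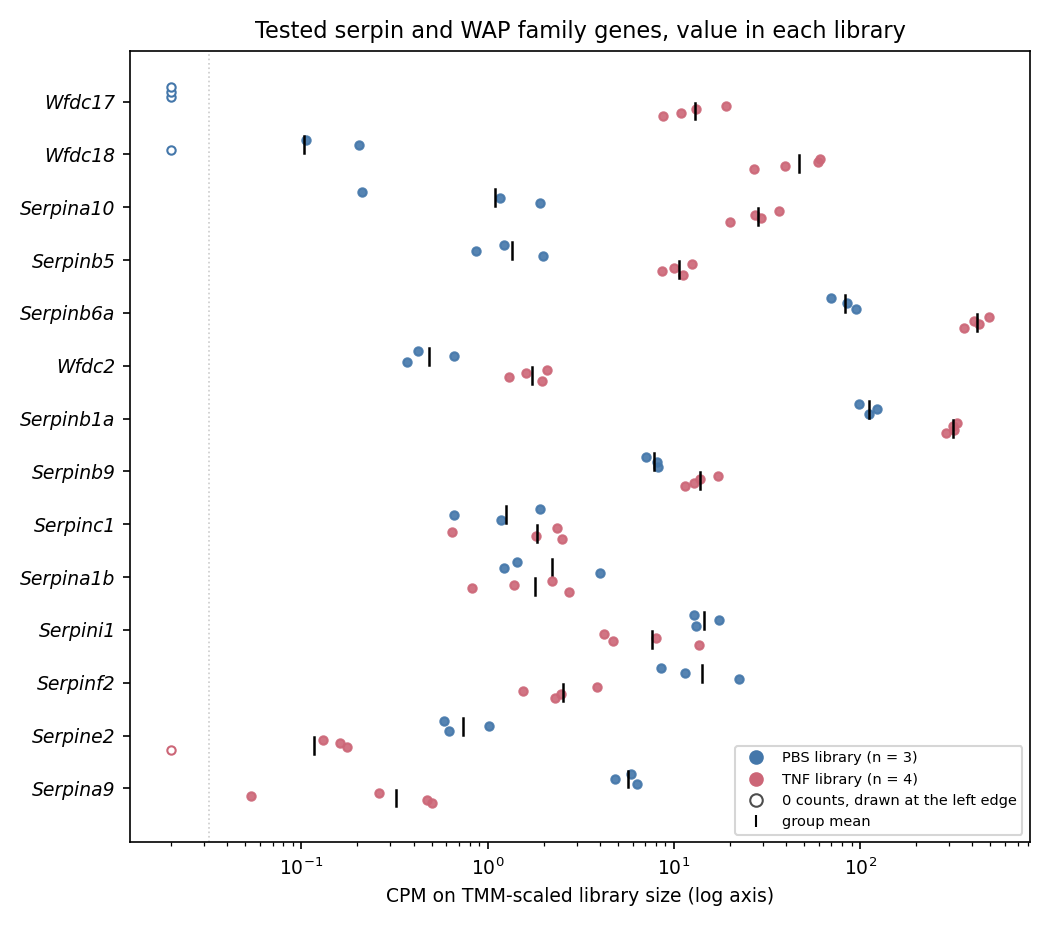
Level of the 14 tested serpin and WAP family genes in each of the 3 PBS (blue) and 4 TNF (red) libraries, in CPM on a log axis; open circles at the left edge are libraries with 0 counts and black ticks are group means. Wfdc17 and Wfdc18 moved from the floor to between 8.73 and 61.1 CPM, Serpinb6a and Serpinb1a were the highest genes in every library, and Serpina9 moved furthest to the left.

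The intracellular clade B serpins were the main serpins of PCs, and all 4 that could be tested rose after TNF, where 29.5% of all tested genes rose. Serpinb6a, a cytosolic inhibitor of cathepsin G and of trypsin-like proteases, had 94.5, 84.4 and 69.8 CPM in the PBS libraries and 362, 435, 409 and 490 CPM in the TNF libraries. The lowest TNF library was thus well above the highest PBS library. The change was 5.12-fold (log2 fold change 2.35 ± 0.14 SE, adjusted p = 1.24e-08, edgeR quasi-likelihood test). Serpinb1a, an inhibitor of the neutrophil proteases elastase, cathepsin G and proteinase 3, had 112, 123 and 98.2 CPM after PBS and 289, 318, 316 and 330 CPM after TNF. Again the groups did not overlap, and the level rose 2.82-fold (log2 1.49 ± 0.11 SE, adjusted p = 9.54e-08). Serpinb1a varied least among the TNF libraries, with an SD of 17.2 CPM on a mean of 313 CPM.

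Serpinb9, which protects cells from the cytotoxic protease granzyme B, rose by the smallest factor among the genes of the family that rose. It had 8.22, 8.09 and 7.05 CPM after PBS and 11.5, 12.8, 13.9 and 17.3 CPM after TNF, without overlap. The change was 1.78-fold (log2 0.83 ± 0.18 SE, adjusted p = 0.0014). Serpinb5, or maspin, an epithelial serpin that does not inhibit proteases, stood at 1.98, 0.865 and 1.22 CPM after PBS and at 11.1, 8.66, 9.96 and 12.6 CPM after TNF. It rose 7.87-fold (log2 2.98 ± 0.30 SE, adjusted p = 1.44e-06). The other 24 clade B genes were practically absent: 21 had 0 counts, and Serpinb6b, Serpinb6c and Serpinb9b had 3, 5 and 1 counts over all libraries.

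The 4 expressed clade B genes lie in the family's 2 clade B clusters. In the GRCm39 annotation, Serpinb1a (chr13:33026042-33035224), Serpinb9 (chr13:33187233-33201940) and Serpinb6a (chr13:34100229-34186812) belong to a cluster of 16 members on chromosome 13 in which 10 had 0 counts. Serpinb5 (chr1:106788875-106811078) is the outermost of 12 members on chromosome 1, and the other 11 had 0 counts in all 7 libraries. The other detected members of the chromosome 13 cluster were the 3 clade B genes with 1 to 5 counts. The annotated interval of Serpinb6a overlaps Ripk1 and Nqo2 on the opposite strand, and 14.9% of the 75-base windows of Serpinb6a also occur in antisense in another gene. Whether the counting used strand is not stated. Ripk1 had 9397 counts over all libraries, against 33490 for Serpinb6a, and its log2 fold change was 0.94, against 2.35 for Serpinb6a. Serpinb1a overlaps Wrnip1 (6894 counts, log2 fold change 0.69), but shares no antisense window with any gene.

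Promoters of Serpinb6a and Serpinb9 are shown because both held the only matches among the tested genes to an interferon-stimulated response element (ISRE), searched on both strands as GAAA, any 2 bases and GAAA. The sequences are the 250 bases before an annotated start from RefSeq on GRCm38.p6, 5′ to 3′ on the strand of the gene. The Serpinb6a promoter is chr13:34002795-34003044 on the minus strand, the more upstream of 2 listed starts, and the Serpinb9 promoter is chr13:33004291-33004540 on the plus strand. Capitals mark motif matches.
Serpinb6a: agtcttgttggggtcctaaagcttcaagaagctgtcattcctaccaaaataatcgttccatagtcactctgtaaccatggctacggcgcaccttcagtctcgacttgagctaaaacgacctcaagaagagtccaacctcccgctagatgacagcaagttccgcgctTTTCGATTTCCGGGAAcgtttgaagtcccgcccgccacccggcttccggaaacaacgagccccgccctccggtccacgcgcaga
Serpinb9: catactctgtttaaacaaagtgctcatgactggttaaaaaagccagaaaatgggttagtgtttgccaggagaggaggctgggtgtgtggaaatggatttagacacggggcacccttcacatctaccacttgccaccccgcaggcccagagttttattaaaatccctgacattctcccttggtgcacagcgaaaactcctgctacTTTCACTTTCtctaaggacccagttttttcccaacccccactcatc
In the Serpinb6a promoter the ISRE match began 84 bases before the start and overlapped a STAT match (TTCNNNGAA) at 77 bases. In the Serpinb9 promoter the ISRE match began at 46 bases. Of all 32851 promoters of the RefSeq table, 2.98% held an ISRE match and 7.02% a STAT match in the same window. Promoters were listed for 11 of the 14 tested genes, 13 promoters in all. A further 3 motifs were searched: NF-kB as GGG, any 5 bases and CC, found in 6 of the 13 promoters and in 45.8% of all promoters; AP-1 as TGANTCA, in 2 of 13 and 6.75%; and C/EBP as TTGCNNAA, in 1 of 13 and 9.56%. The motifs were chosen with the results known, and a match is a run of letters, not a measured binding site.

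WAP domain genes showed the largest changes of the family. Wfdc17, a WAP protein known from activated macrophages, had 0 counts in all 3 PBS libraries and 156, 186, 246 and 291 counts in the TNF libraries, or 8.73, 10.96, 13.2 and 19.0 CPM. It rose at least 233-fold, computed against 3 counts over the PBS group (adjusted p = 1.08e-07, edgeR quasi-likelihood test), and leaving out PBS replicate 2 or PBS replicate 3 lowered the bound to 149-fold or 153-fold. Wfdc18, a small secreted WAP protein, had 0, 4 and 2 counts after PBS and 481, 668, 1106 and 933 counts after TNF. On the CPM scale it went from 0.103 ± 0.102 to 46.6 ± 16.4, a log2 fold change of 8.64 ± 0.54 SE (adjusted p = 4.86e-07). The fitted value was 9.51 without PBS replicate 2, which held most of the PBS counts. For both genes the lowest TNF library was far above the highest PBS library.

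Wfdc17 (chr11:83594817-83597095) and Wfdc18 (chr11:83599841-83602174) are neighbours on the plus strand of chromosome 11, with 2745 bases between them in GRCm39. Wfdc21, the third WAP gene of this cluster, had 0 counts in all 7 libraries. Heatr6, the only other tested coding gene within 100 kb, had a log2 fold change of -0.06. The promoters of the pair are shown because these genes moved together from about 0. They are chr11:83703806-83704055 and chr11:83708754-83709003 on GRCm38.p6, plus strand, with 250 bases each.
Wfdc17: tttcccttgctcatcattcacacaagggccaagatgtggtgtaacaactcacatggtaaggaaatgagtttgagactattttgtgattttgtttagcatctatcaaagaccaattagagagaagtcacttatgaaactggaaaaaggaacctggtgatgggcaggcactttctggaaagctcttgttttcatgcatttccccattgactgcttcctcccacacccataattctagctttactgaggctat
Wfdc18: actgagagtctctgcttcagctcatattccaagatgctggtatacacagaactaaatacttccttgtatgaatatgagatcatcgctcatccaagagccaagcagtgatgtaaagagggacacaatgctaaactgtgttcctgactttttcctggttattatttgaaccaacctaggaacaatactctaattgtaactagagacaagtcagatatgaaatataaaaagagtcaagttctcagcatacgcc
None of the 5 motifs had a match in either sequence, so no letters are in capitals. That says only that these letters are not in these windows.

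Wfdc2, a WAP protein secreted by epithelia, also rose, from a low level. It had 6, 13 and 8 counts after PBS and 35, 22, 30 and 32 counts after TNF, without overlap. The mean went from 0.486 ± 0.155 to 1.74 ± 0.359 CPM (log2 1.82 ± 0.50 SE, adjusted p = 0.00651). Slpi, the secretory leukocyte protease inhibitor and the best known WAP inhibitor of neutrophil elastase, was close to absent in PCs: it had 0 counts in the PBS libraries and 5, 3, 0 and 1 counts in the TNF libraries. The TNF level was at least 2.38-fold higher against 3 counts over the PBS group, a bound of 1.43-fold when TNF replicate 1 was left out, and of 1.53-fold or 1.56-fold when PBS replicate 2 or PBS replicate 3 was. Slpi did not pass the test when the filter was dropped (adjusted p = 0.106, edgeR quasi-likelihood test).

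Of the other 15 WAP genes, 9 had 0 counts and 6 had too few counts for the test. Wfdc10 had 4, 9 and 4 counts after PBS and 0 in all TNF libraries, at least 7.13-fold lower. Wfdc16 had 8, 5 and 0 counts after PBS and 0 in all TNF libraries, at least 5.45-fold lower, a bound of 2.98-fold when PBS replicate 1 was left out and of 8.32-fold when PBS replicate 3 was. Both were below the filter, and in the fit without a filter, in which 19.0% of 24572 genes were called lower, their adjusted p was 0.0118 and 0.0248. Both lie in the WAP cluster of chromosome 2 (chr2:164018247-164587871), which holds 15 members including Wfdc2 and Slpi, 8 of them at 0 counts. Wfdc3, also of this cluster, had 4, 0 and 12 counts after PBS and 7, 8, 2 and 6 after TNF. The remaining 3 with any counts, Wfdc15b, Wfdc12 and Wfdc1, had 11, 3 and 3 counts over all libraries.

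**Figure D2:**
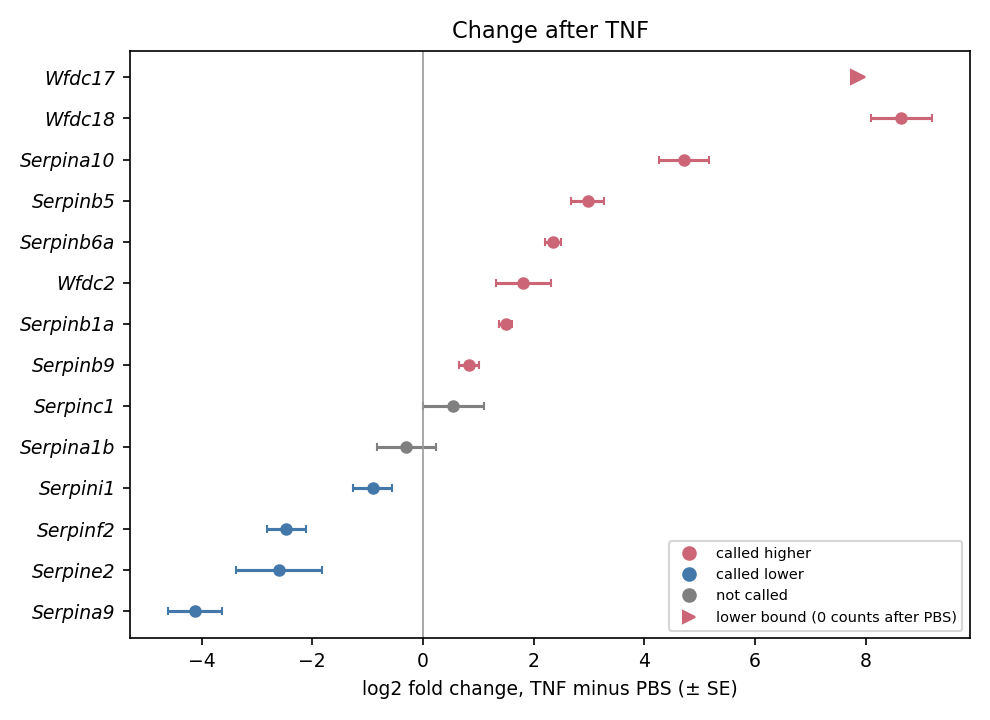
Change after TNF of the 14 tested family genes as log2 fold change, TNF minus PBS, with SE from the edgeR fit; red points were called higher, blue lower and grey not called, and the triangle for Wfdc17 is a lower bound. The 7 genes that rose and have a fitted value drawn span 0.83 to 8.64, and the 4 that fell span -0.91 to -4.11.

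Clade A serpins moved in both directions within a single cluster. Serpina10, the protein Z-dependent inhibitor of coagulation factor Xa, rose from 1.92, 1.17 and 0.212 CPM in the PBS libraries to 20.04, 29.3, 27.2 and 36.7 CPM in the TNF libraries. The log2 fold change was 4.71 ± 0.45 SE (adjusted p = 1.02e-05), and 5.33 without PBS replicate 1, the highest PBS library. Serpina9, or centerin, known from germinal centre B cells, fell from 6.30, 4.84 and 5.89 CPM to 0.504, 0.472, 0.0535 and 0.262 CPM. It was 17.3-fold lower after TNF (log2 -4.11 ± 0.49 SE, adjusted p = 6.66e-06). For both genes the groups did not overlap. Serpina1b, a copy of the antitrypsin gene, had 4.02, 1.22 and 1.43 CPM after PBS and 2.74, 0.825, 1.39 and 2.22 CPM after TNF, so its groups overlapped and it was not called (log2 -0.30 ± 0.53 SE, adjusted p = 0.647). Its counts are uncertain, since 16.1% of its 75-base windows also occur in other genes.

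These 3 genes belong to a cluster of 23 members on chromosome 12 (chr12:103580578-104380597), in which 7 members had 0 counts. Serpina10 (chr12:103580578-103597716) is at its edge, and 28.3% of its windows occur in antisense in another gene. Its overlapping neighbour Ppp4r4 had 59 counts over all libraries, against 1982 for Serpina10. The antichymotrypsin-like genes of the cluster, of which several are acute phase genes in liver, were barely detected: Serpina3n had 2, 1 and 7 counts after PBS and 3, 2, 6 and 5 after TNF, and Serpina3k had 5, 4 and 1 and then 10, 4, 5 and 11. Serpina3i had 0 counts after PBS and 1, 3, 0 and 9 after TNF. Serpina3c had 9 counts, all in TNF replicate 1. The other detected members of the clade below the filter had at most 16 counts each over all libraries, the most for Serpina3f.

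**Figure D3:**
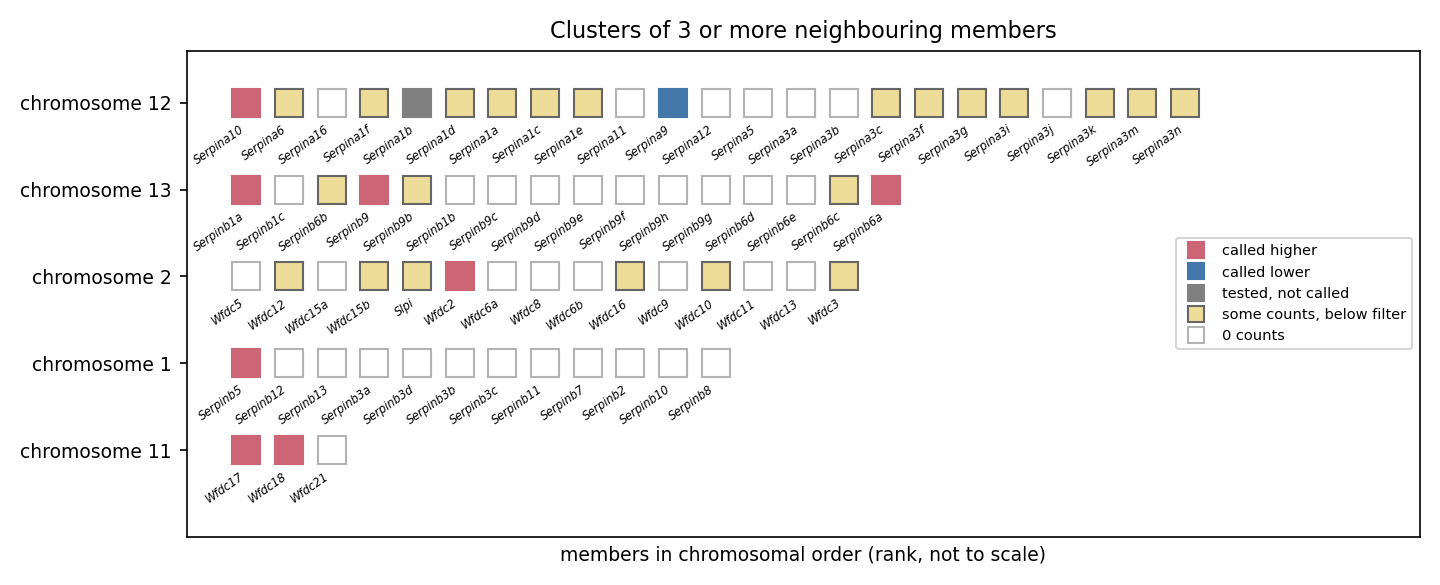
Family members of the 5 chromosomal clusters with 3 or more genes, 1 square per gene in chromosomal order and not to scale; red was called higher, blue lower, grey tested but not called, yellow had some counts below the filter and white had 0 counts. The chromosome 1 cluster has 1 red gene among 11 white ones, the chromosome 13 cluster has 3 red, 3 yellow and 10 white genes, and the chromosome 12 cluster holds both a red and a blue gene.

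Of the 11 serpins of other clades, 4 could be tested, and 3 of these fell, where 30.1% of all tested genes fell. Serpinf2, or antiplasmin, the main inhibitor of plasmin, had 22.3, 11.5 and 8.48 CPM after PBS and 2.29, 2.48, 1.55 and 3.86 CPM after TNF. It was 5.55-fold lower after TNF, without overlap (log2 -2.47 ± 0.35 SE, adjusted p = 5.84e-05). Serpine2, a nexin that inhibits thrombin and the plasminogen activators, had 10, 20 and 11 counts after PBS and 0, 3, 3 and 2 after TNF. It fell by 2.60 on the log2 scale (± 0.78 SE, adjusted p = 0.0103), but was not called without PBS replicate 2, the highest PBS library (log2 -2.29, adjusted p = 0.0666). Serpini1, or neuroserpin, an inhibitor of tissue plasminogen activator, was called lower with overlapping groups. It had 13.1, 17.4 and 12.8 CPM after PBS and 13.7, 4.72, 8.03 and 4.19 CPM after TNF (log2 -0.91 ± 0.35 SE, adjusted p = 0.0431). TNF replicate 1 lay within the PBS range, and leaving out any library except that replicate ended the call, with adjusted p up to 0.139.

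Serpinc1, or antithrombin, had 1.17, 0.662 and 1.91 CPM after PBS and 2.52, 1.83, 0.643 and 2.36 CPM after TNF, so the groups overlapped and it was not called (log2 0.55 ± 0.55 SE, adjusted p = 0.403). Of its windows, 32% occur in antisense in another gene, and its overlapping neighbour Zbtb37 had 2719 counts against 192 for Serpinc1. Serping1, an inhibitor of complement proteases, had 1, 7 and 0 counts after PBS and 2, 0, 0 and 12 after TNF. Serpinh1, a collagen chaperone with no inhibitory function, had 6, 2 and 2 counts after PBS and 0, 1, 0 and 0 after TNF. Of the other genes of these clades, Serpind1 and Serpini2 had 4 and 3 counts over all libraries, and Serpinf1 and Serpine3 had 0.

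Per kilobase of exon, Serpinb1a ranked highest in both groups, with 39.9 CPM per kb after PBS and 112 after TNF, and Serpinb6a was next, with 10.9 and 55.8 CPM per kb. Below them the order changed. After PBS the next genes were Serpinf2 (3.57 CPM per kb), Serpini1 (1.70), Serpinb9 (1.604) and Serpina9 (1.47). After TNF they were Wfdc18 (38.2 CPM per kb), Wfdc17 (7.82), Serpina10 (5.78) and Serpinb5 (3.81), and Serpinf2 and Serpina9 had moved to places 9 and 13 of 14. The annotated exon length may differ from the transcript that PCs use.

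Of 69 listed proteases that serpins and WAP proteins inhibit and their relatives, 31 were tested. Among these 16 rose and 9 fell, where 29.5% of all tested genes rose and 30.1% fell, and the median log2 fold change was 0.85. The neutrophil serine proteases, targets of Serpinb1a, were at or near 0: Elane and Ctsg had 0 counts in all 7 libraries and Prtn3 had 3 counts, all in TNF replicate 1. Inside the cell, the inflammatory caspase gene Casp4 rose from 8.16 ± 2.20 to 95.2 ± 21.7 CPM (log2 3.55 ± 0.22 SE, adjusted p = 5.53e-08) and the lysosomal cathepsin gene Ctsl from 29.7 ± 9.57 to 166 ± 29.5 CPM (log2 2.48 ± 0.22 SE, adjusted p = 3.06e-06). Klk1, a tissue kallikrein, fell from 198 ± 74.8 to 51.0 ± 9.04 CPM (log2 -1.96 ± 0.25 SE, adjusted p = 0.000103). Hgfac, Habp2 and Prss8, which encode secreted or membrane-bound trypsin-like proteases, fell with log2 fold changes of -1.41, -1.26 and -1.18. Proteases of that kind did not all fall. St14, Prss32, Hpn and Tmprss4 rose without overlap, with log2 fold changes of 1.88, 1.35, 1.06 and 0.85, and were chosen after their values were seen.

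Plat, Plaur, Anxa2 and S100a10 are set beside the serpins that act on plasmin and its activators, a grouping made with the values known and not tested as a set. Plat, tissue plasminogen activator, had 0, 0.255 and 0 CPM after PBS and 25.7, 16.7, 22.6 and 16.8 CPM after TNF. The fitted log2 fold change was 7.70 ± 0.49 SE (adjusted p = 3.93e-08). All 5 PBS counts of Plat came from PBS replicate 2, without which the fitted value, 11.47, rests on no PBS count. Plaur, the urokinase receptor, rose from 1.55, 0.916 and 1.22 CPM to 61.5, 59.3, 56.2 and 45.3 CPM (log2 5.51 ± 0.20 SE, adjusted p = 1.62e-10). Anxa2 and S100a10, which form a complex that binds plasminogen at the cell surface, rose from 47.6 ± 11.1 to 664 ± 62.4 CPM and from 24.0 ± 6.58 to 192 ± 21.9 CPM, with log2 fold changes of 3.80 ± 0.18 and 3.00 ± 0.18 SE. Plau, urokinase, had 0 and 9 counts in the PBS and TNF groups, and Plg, plasminogen itself, had 3 and 6 counts. Plg was chosen after its values were seen.

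**Figure D4:**
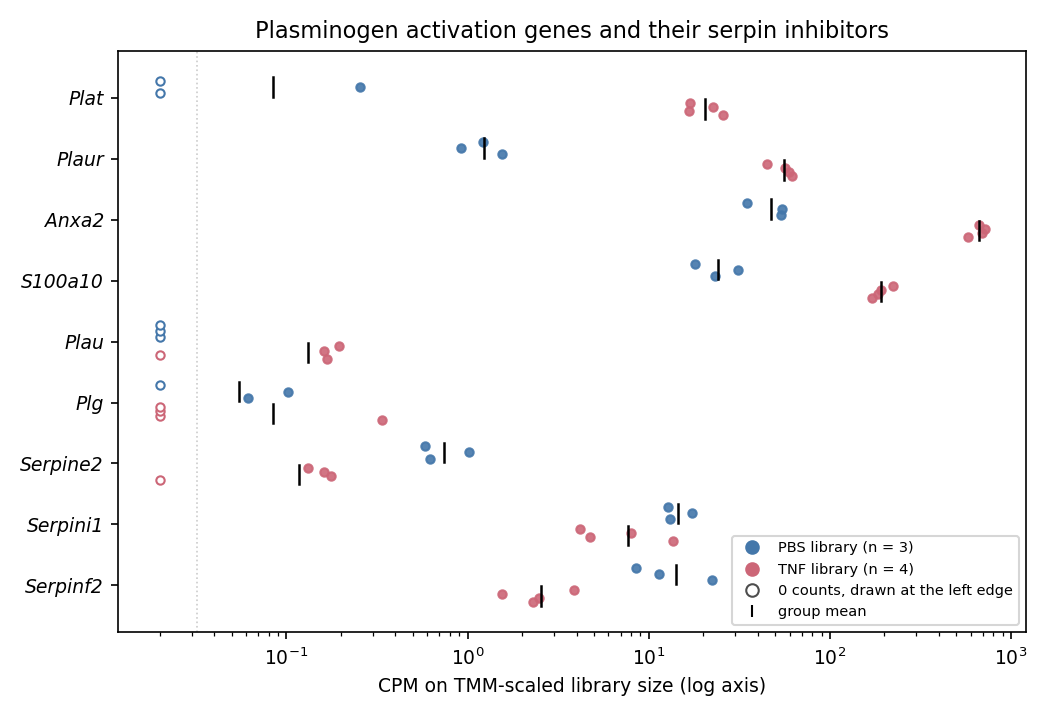
Level of genes of plasminogen activation and of the serpins that inhibit it, in CPM on a log axis, for 3 PBS (blue) and 4 TNF (red) libraries; open circles at the left edge are 0 counts and ticks are group means. Plat, Plaur, Anxa2 and S100a10 shifted to the right after TNF, Serpinf2 and Serpine2 to the left, the groups of Serpini1 overlapped, and Plau and Plg stayed near the floor.

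Receptors and cofactors that bind serpins or their complexes changed in 10 of 10 tested genes, 8 of which rose and 2 of which fell, out of 13 listed, where 59.6% of all tested genes were called. Beside Plaur, Anxa2 and S100a10, Lrp8, an LDL receptor family member, rose with a log2 fold change of 4.43 ± 0.26 SE (adjusted p = 1.81e-08). Lrp1, the receptor that clears complexes of serpins with proteases, fell from 35.3 ± 15.1 to 6.43 ± 2.52 CPM (log2 -2.44 ± 0.35 SE, adjusted p = 0.000207). Sort1, a sorting receptor, fell from 771 ± 90.5 to 297 ± 14.0 CPM (log2 -1.38 ± 0.11 SE, adjusted p = 2.28e-07).

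Of 43 listed protease inhibitors outside the family as defined here by symbol, 42 were in the count table and 12 were tested. Among these 2 rose and 2 fell, where 59.6% of all tested genes were called. Leaving out PBS replicate 3, or scaling by total counts, raised the number that fell to 5, and 4 rose when the filter was dropped. Cstb, the intracellular cystatin that inhibits cathepsins, rose from 12.98 ± 3.25 to 54.7 ± 9.59 CPM (log2 2.08 ± 0.19 SE, adjusted p = 9.74e-07). Spint1, a membrane-bound Kunitz inhibitor of matriptase, rose from 86.0 ± 8.67 to 160 ± 11.7 CPM (log2 0.90 ± 0.11 SE, adjusted p = 7.86e-06). Its relative Spint2 was not called, at 1039 ± 169 and 876 ± 64.5 CPM (log2 -0.25 ± 0.14 SE, adjusted p = 0.135), but was called lower when PBS replicate 3 was left out (log2 -0.34, adjusted p = 0.0456) and with scaling by total counts. The trypsin inhibitor gene Spink1 was not called, at 1.195 ± 0.640 and 0.613 ± 0.215 CPM. The genes that fell were Tfpi2 (log2 -1.21 ± 0.26 SE) and Itih5 (log2 -1.72 ± 0.32 SE), which were chosen after their values were seen.

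Markers of other cell types moved between the groups as well. Of 13 leukocyte markers, 10 were detected, their sum was 24.9 to 33.4 CPM after PBS and 22.6 to 30.1 CPM after TNF, and Cd3e and Tyrobp were among those at 0. Within this list S100a9 rose from 0 to 5.92 CPM and Ptprc was called lower, from 16.4 to 8.50 CPM. The groups of Ptprc overlapped, and its highest value, 26.2 CPM, was in PBS replicate 2. Of 9 neutrophil and mast cell markers, 5 were detected, with a sum of 0 CPM in the PBS libraries and 6.96 to 12.1 CPM in the TNF libraries. Those were mostly S100a9 and Ly6g, while Csf3r, Retnlg, Mcpt1 and Cpa3 were at 0. Wfdc17 and Serpinb1a, which are known from myeloid cells, rose in the same libraries. Of 8 enterocyte markers, all were detected and their sum went from between 352 and 510 CPM to between 47.5 and 59.7 CPM. The sum was mostly Anpep, at 375 ± 70.1 CPM after PBS and 43.4 ± 4.23 CPM after TNF. The enterocyte markers other than Anpep were each highest in PBS replicate 2. Of the 6 that were tested, 5 fell and Fabp1 was not called. All 6 tuft cell markers fell, with sums of 1413 to 2307 CPM and 265 to 682 CPM. All 5 stem cell markers fell, with sums of 2546 to 3693 CPM and 998 to 1627 CPM, where 30.1% of all tested genes fell. Of 7 goblet cell markers, 4 fell and 1 rose, with sums of 7411 to 14135 CPM and 6788 to 7416 CPM, and of 7 enteroendocrine markers 3 fell and 1 rose, with sums of 45.7 to 114.8 CPM and 50.6 to 89.4 CPM. Of 10 stromal and endothelial markers, 7 were detected, with sums of 2.39 to 2.72 CPM and 8.09 to 9.96 CPM, nearly all of it Vwf, the only marker of the list that could be tested, while Col1a2, Lum and Kdr were at 0. Of 5 mesothelial markers, 3 were detected, nearly all of it Krt19, with sums of 182 to 216 CPM and 698 to 755 CPM, and Msln and Wt1 were at 0. Of 7 pancreatic acinar markers, 6 were at 0. Of 7 hepatocyte markers, all were detected, with sums of 146 to 183 CPM and 48.1 to 72.1 CPM. The sum was mostly Apob, which fell with Ttr, while Fga (log2 4.36) and Fgb (log2 2.23) rose and the other 3 were not called, and Serpina10, Serpinc1 and Serpinf2 are also known from liver. The part of such cells in the changes of the family was not tested.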

How the data were processed

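The authors deposited raw counts, whole numbers of reads per gene, for 3 PBS and 4 TNF libraries of purified PCs, made from single-end reads of total RNA. The submitters' processing notes name FastQC, Trimmomatic 0.39, STAR 2.7.10a, DESeq2 and the builds mm10 and mm39, with no role given. The sources used here do not state which annotation was counted, or whether strand was used. All columns were matched to samples by name, and 0 others were left unused. Symbols and coordinates came from GENCODE M39 on GRCm39, which held 54749 (98.8%) of the identifiers, and promoters from RefSeq on GRCm38.p6.

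Counts were tested in R 4.3.3 with edgeR 4.0.16 (two-sided quasi-likelihood test, robust option, TMM scaling, filterByExpr) over all 7 libraries with no covariates. Against a group at 0 counts, the fold is a bound set by a floor of 3 counts over that group, and floors cover counting error only. The script was tested on simulated data. The alternatives were DESeq2 1.42.0, other scalings and filters, a replicate block and leaving out each library.

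Members and lists were chosen with earlier results of these data known. Named in full were the 8 DEGs of the family with the highest mean CPM and the 8 with the largest change, at a mean of at least 1 CPM, and the members that were tested but not called, and the other tested and low members were described with their clade. Of the related lists, named genes were DEGs that averaged 10 CPM or more, with groups that do not overlap, at most 4 a direction and list, plus 9 chosen by role. Replicate numbers did not pair libraries: deviations from the group means of libraries with the same number correlated at -0.299, -0.0314 and -0.174. No 2 libraries of a group were copies. Some genes of the family and lists are not reported here.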

Additional observations from a re-analysis of the deposited data

Results flagged for a closer look

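Within the 4 TNF libraries, 40 values were examined for a library far from the rest, and 1 was found, where chance gives about 1 in 20 groups. For Prtn3, the neutrophil proteinase 3 gene, TNF replicate 1 had 0.1679 CPM (3 counts) and the others 0, so that its gap took 1 of the range.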

How the results depend on the processing

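Of 195 alternative values for the 14 tested family genes, 185 stayed on the same side of the threshold, 10 were no longer called, and no called gene changed direction. Serpina1b, not called in any alternative, turned from -0.30 to 0.44 on the log2 scale without PBS replicate 1. The lost calls were Serpini1 in 7 of 14 alternatives, Serpine2 with the replicate block and without PBS replicate 2, and Wfdc2 with the replicate block. With that block the adjusted p was 0.0533 for Wfdc2, 0.0549 for Serpine2 and 0.0723 for Serpini1, and 2 family genes were called lower in place of 4. Libraries that share a number did not deviate together over all genes, and why these calls were lost was not tested. Over all genes, 3553 were called higher and 3578 lower with the block, against 4229 and 4314. Leaving out each library gave 8 family genes called higher throughout and 2 to 4 called lower. Other inhibitors called higher were 4 without a filter in place of 2, and those called lower were 5 with scaling by total counts, and 2 to 5 when each library was left out, with 5 without PBS replicate 3. The causes were not tested. The ratio of summed family CPM lay between 3.165 and 3.714 in all alternatives. Scaling by total counts shifted the median log2 fold change of all genes to -0.16, and no called family gene changed direction. Spint2 was called lower with that scaling (log2 -0.40) and without PBS replicate 3 (log2 -0.34).

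Depth limits what can be said of the 28 family genes with counts below the filter, and the size of the change of Wfdc17, Wfdc18 and Plat rests on 0 to 6 PBS counts each.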
